A study of Mus musculus with 12 samples.

Results

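The chromatin at 6 genes of lymphoid tissue organizer and marginal reticular stromal cells (SC), Tnfsf11, Madcam1, Pthlh, Dsc2, Vcam1 and Icam1, was examined in non-endothelial SCs of mouse lymph nodes. A peak, that is a stretch of open chromatin, was assigned to a gene when the nearest transcription start site (TSS) of any protein-coding gene belonged to it on GRCm38 (GENCODE vM21). By this rule 21 of 42424 peaks belonged to 5 of the 6 genes, with 4 at Tnfsf11, 6 at Pthlh, 2 at Dsc2, 7 at Vcam1, 2 at Icam1 and none at Madcam1.

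The cells had been sorted as CD45- CD24- CD31- Pdpn+ from gut-draining mesenteric lymph nodes (mLN) or skin-draining peripheral nodes (pLN, inguinal and axillary) and profiled by ATAC-seq, in which a transposase cuts and tags open DNA. All mice were BALB/c and, unless the study states otherwise, female, and were kept either specific pathogen-free (SPF, 7 to 12 weeks old) or germ-free (GF, 6 to 10 weeks old), which gave mLN-SPF (n = 3), pLN-SPF (n = 3), mLN-GF (n = 3) and pLN-GF (n = 2). The methods list a CD90.1 strain of BALB/c among the SPF animals, whereas GF mice were derived by cesarean section at another institution and kept in isolators, so that housing, colony, line and age range cannot be told apart. The labels do not say whether libraries came from separate animals, and p-values then measure only the spread between these libraries, which may be technical in part. The study's reporting summary states that its bulk sequencing included at least 2 replicates from independent experiments, without naming the libraries. The labels give a mesenteric source also for the pLN libraries, whose group was therefore taken from their titles.

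Organizer cells are the mesenchymal cells that start a lymph node in the embryo: they are switched on through the lymphotoxin beta receptor and retain hematopoietic inducer cells by chemokines and adhesion molecules. Marginal reticular cells, which line the subcapsular sinus and border the B cell follicles of the adult node, share many of their markers, among them RANK ligand and MAdCAM-1. The adhesion molecules VCAM-1 and ICAM-1 are targets of NF-kB signaling.

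Facts of the whole data set bear on these values as follows. The libraries held 2886129 to 10380493 reads in peaks, with the fewest in mLN-SPF replicate 3 and pLN-SPF replicate 3, and a median peak held 37 to 136 reads per library. Values are RPKM, in which reads are divided by the width of the peak in kilobases and by library size, so that levels can be compared between peaks of unequal width. Of 10 genes chosen as markers of non-endothelial stroma, 8 had a promoter peak (a peak within 1 kb of a TSS), at a median of 46.3 RPKM, although Pdpn itself had none. Of markers of other cell types, a promoter peak was found for 8 of 10 perivascular and smooth muscle genes (median 41.2 RPKM), 7 of 15 blood endothelial genes (18.1), 3 of 7 lymphatic endothelial genes (25.4), 2 of 9 hematopoietic genes (22.2), 3 of 7 follicular dendritic cell genes (50.6) and 1 of 9 epithelial genes (35.0). Of the genes against which cells were sorted, Ptprc (CD45) and Pecam1 (CD31) had none, and Cd24a was the epithelial gene with one. The summed RPKM over the peaks of blood endothelial markers was 954 to 1238 in the 6 mLN and 1319 to 1495 in the 5 pLN libraries, and that of perivascular and smooth muscle markers 876 to 1102 and 1196 to 1437. Stromal identity markers summed to 2148 to 2368 in mLN and 2005 to 2155 in pLN, which overlap. Hematopoietic markers summed to 327 to 522 and 519 to 612 and lymphatic endothelial markers to 217 to 324 and 183 to 229, which overlap as well.

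Of the 21 peaks, 5 were in promoters, 2 in coding exons, 3 in introns and 11 intergenic, against 30.1%, 2.71%, 29.3% and 37.0% of all peaks in these classes. They were 110 to 1636 bp wide. Their mean levels over the 11 libraries ran from 9.84 RPKM for a peak 69.4 kb upstream of Pthlh to 62.0 RPKM for one 3.9 kb upstream of Icam1. Their median was 22.9 RPKM, compared with 27.0 RPKM over all peaks, and 16 of the 21 lay below the median peak.

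Sequences are shown for 4 of the 6 peaks that were called between nodes in SPF mice, the 3 distal peaks of Pthlh and an upstream peak of Vcam1, and not for the 2 peaks of Dsc2. The Pthlh intron is shown beside them as the strongest peak of that gene, and the Tnfsf11 promoter peak as the region that separated the housings. They were read from GRCm38 on the strand of the gene (minus for all 3 genes), 5' to 3', whole for peaks up to 204 bp wide and as the central 200 bases of wider ones. Capitals mark matches on either strand to any of 8 short motifs: GGNNTTTCC (NF-kB), TGANTCA (AP-1), GAAANTGAA (IRF), CCCNNGGGA (EBF), CACTTAA (NKX2), GGAATG (TEAD), GGGCGG (SP/KLF) and CCGGAAGT (ETS).
Pthlh, 69.4 kb upstream, chr6:147333533-147333732: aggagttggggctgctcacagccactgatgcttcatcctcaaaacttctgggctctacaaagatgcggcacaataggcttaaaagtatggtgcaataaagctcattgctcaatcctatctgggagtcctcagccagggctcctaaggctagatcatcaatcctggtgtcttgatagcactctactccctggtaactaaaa
Pthlh, 54.2 kb upstream, chr6:147318306-147318441: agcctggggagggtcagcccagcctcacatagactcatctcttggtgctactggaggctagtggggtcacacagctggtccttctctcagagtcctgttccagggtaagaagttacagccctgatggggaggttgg
Pthlh, 68.9 kb downstream, chr6:147195177-147195376: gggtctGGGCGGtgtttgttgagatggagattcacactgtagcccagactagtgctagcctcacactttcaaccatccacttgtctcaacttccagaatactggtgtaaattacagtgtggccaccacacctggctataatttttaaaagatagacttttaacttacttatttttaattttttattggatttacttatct
Pthlh, intron, chr6:147260870-147261069: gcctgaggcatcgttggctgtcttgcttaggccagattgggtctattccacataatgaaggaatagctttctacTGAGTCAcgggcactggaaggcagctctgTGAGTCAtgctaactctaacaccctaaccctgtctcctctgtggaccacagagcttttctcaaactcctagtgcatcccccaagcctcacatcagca
Vcam1, 57.4 kb upstream, chr3:116186997-116187200: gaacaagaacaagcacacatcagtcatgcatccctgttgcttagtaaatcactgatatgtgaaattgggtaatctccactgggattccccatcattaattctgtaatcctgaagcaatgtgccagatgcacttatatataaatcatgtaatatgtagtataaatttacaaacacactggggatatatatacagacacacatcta
Tnfsf11, promoter, chr14:78308087-78308196: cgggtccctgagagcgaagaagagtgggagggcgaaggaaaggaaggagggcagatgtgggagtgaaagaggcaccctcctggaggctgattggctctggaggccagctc

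The Pthlh intron held TGAGTCA, a full AP-1 match, at offsets 75 and 104 of the 200 bases shown, and 12.7% of the central 200 bases of all peaks at least that wide held an AP-1 match. The downstream Pthlh peak held GGGCGG once, which 23.6% of such windows held. The pair of upstream Pthlh peaks, the Vcam1 peak and the Tnfsf11 promoter peak held none of the 8 motifs, which says only that these letters are not in these windows. Other forms of these sites were not searched. The Vcam1 peak holds GGGATTCCCC, for example, which the NF-kB letters used here cannot match, so the absence of an NF-kB site there is not shown. In the 110 bases of the Tnfsf11 peak the most frequent of the motifs over all peaks, GGGCGG, would be found in 14.3%.

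RefSeq promoters (250 bases before to 50 after the start, GRCm38.p6) were matched by symbol for 4 of the 6 genes, with Vcam1 and Dsc2 missing from the table. Those of Icam1 and Madcam1, the adhesion molecules among them, are shown on their plus strand with the same capitals, the former because a strong peak covered it and the latter because no peak of the table did.
Icam1, chr9:21015690-21015989: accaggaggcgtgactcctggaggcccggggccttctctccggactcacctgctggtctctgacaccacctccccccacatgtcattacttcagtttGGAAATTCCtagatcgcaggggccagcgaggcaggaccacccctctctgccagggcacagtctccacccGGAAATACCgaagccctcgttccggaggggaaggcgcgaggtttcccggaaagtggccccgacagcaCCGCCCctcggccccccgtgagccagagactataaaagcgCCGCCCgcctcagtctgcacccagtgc
Madcam1, chr10:79664309-79664608: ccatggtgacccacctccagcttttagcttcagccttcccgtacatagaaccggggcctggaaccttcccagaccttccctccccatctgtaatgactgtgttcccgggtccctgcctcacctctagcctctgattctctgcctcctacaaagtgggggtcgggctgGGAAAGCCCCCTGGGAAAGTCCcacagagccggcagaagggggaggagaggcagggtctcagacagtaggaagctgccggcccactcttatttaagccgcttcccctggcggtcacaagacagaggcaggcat

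Both held a pair of NF-kB matches, GGAAATTCC and GGAAATACC in Icam1 and GGAAAGCCC and GGAAAGTCC in Madcam1, while 5.82% of 32851 RefSeq promoters held at least 1. The Pthlh promoter held no NF-kB match, and the RefSeq promoter of Tnfsf11 was not searched. In Madcam1 an EBF match, CCCCTGGGA, overlapped both of its NF-kB matches, and an EBF match was found in 6.56% of promoters. Icam1 also held 2 SP/KLF matches and the Pthlh promoter held 4, against 35.7% of promoters with any.

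Madcam1 encodes the mucosal addressin to which lymphocytes bear the integrin alpha4 beta7. None of the 42424 peaks had it as its nearest gene, and since the table holds reads in peaks only, no value can be given for it. The nearest peak lay 4236 bp from its TSS, over the start of Tpgs1, where mLN-SPF stood at 40.9 ± 6.37 RPKM (SD, n = 3) and pLN-SPF at 38.8 ± 6.19 RPKM (SD, n = 3), a difference within the spread of either group (adjusted p = 0.828, limma).

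The first question was whether these genes differ in accessibility between gut- and skin-draining nodes. The clearest differences were at Pthlh, where 3 distal peaks were higher in mLN, and at Dsc2, where both peaks were higher in pLN. A peak was called at a Benjamini-Hochberg adjusted p under 0.05 over all peaks and a change of at least 2-fold (limma on log2(RPKM + 1), on which scale all log2 values below are and which understates changes of weak peaks). In SPF mice 6 of the 21 peaks were called, 3 higher in mLN and 3 in pLN, against 10.8% of all peaks (6.49% higher in mLN, 4.27% in pLN). In GF mice 4 were called, 3 higher in mLN and 1 in pLN, against 13.2% (8.55% and 4.62%), and averaged over housing the 6 of SPF mice were called, against 15.5% (9.43% and 6.05%). All calls higher in mLN were the 3 distal Pthlh peaks, and a limit on how these entered the peak set is given with their values below. Without the 2 libraries with the fewest reads, 3 members were called in SPF mice. The median log2 difference, mLN minus pLN, of the 21 peaks was -0.28 in SPF and -0.38 in GF mice, while that of all peaks was 0.00 and -0.01. It was negative, that is higher in pLN, for 17 and 15 of the 21 peaks, compared with 49.6% and 50.5% of all peaks. Of the signs in SPF mice, 3 turned without mLN-SPF replicate 3, all of uncalled peaks.

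**Figure D1:**
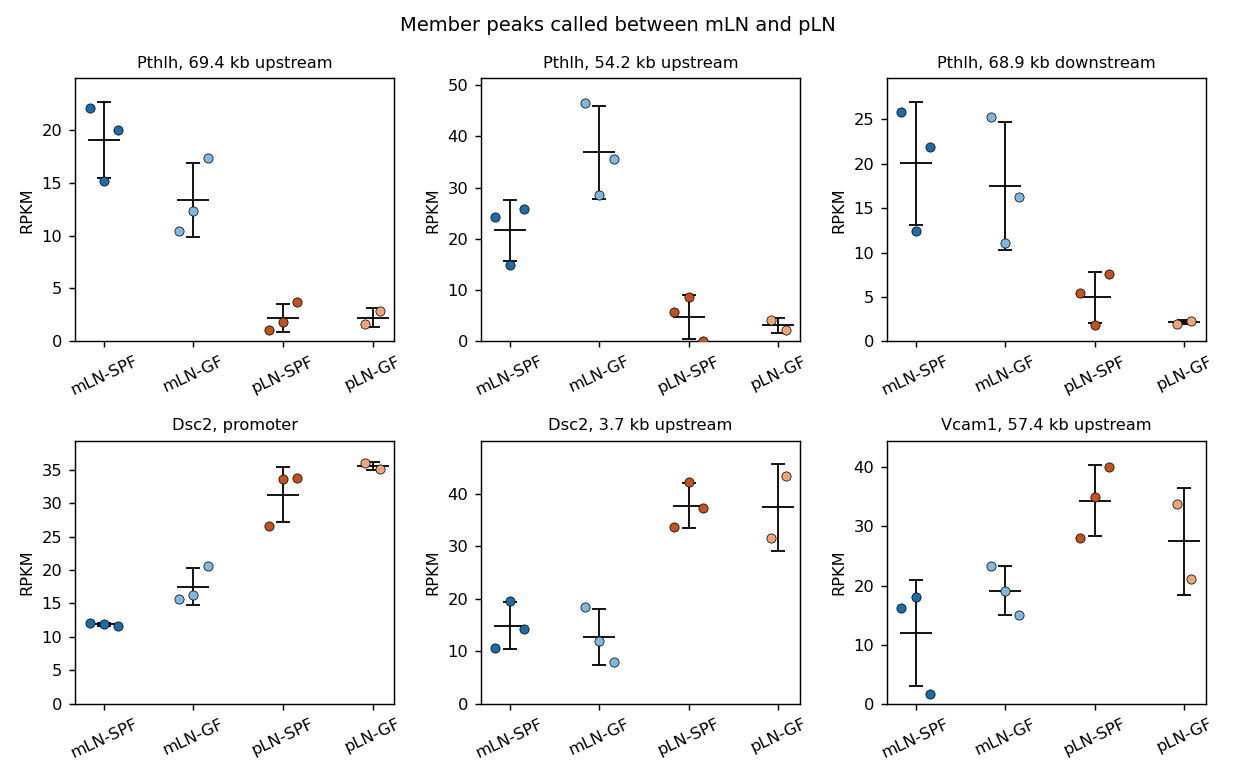
RPKM of the 6 member peaks called between mLN and pLN in SPF mice, with a point per library, the mean as a horizontal line and the SD as bars, for mLN-SPF, mLN-GF, pLN-SPF and pLN-GF (n = 3, 3, 3 and 2). The 3 Pthlh peaks lie at 10.5 to 46.6 RPKM in mLN and at 0 to 8.59 in pLN, and the Vcam1 peak includes an mLN-SPF library at 1.73 RPKM.

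Pthlh encodes parathyroid hormone-related protein, a secreted ligand of the receptor Pth1r best known from cartilage, mammary gland and smooth muscle. Its 6 peaks on chromosome 6 fell into a pattern by distance: the 3 peaks beyond 50 kb were higher in mLN in both housings, and the 3 within 25 kb had negative log2 differences in both. Of these 3 only the intronic peak had an adjusted p under 0.05, in SPF mice. The peak 23.4 kb downstream stood at -0.27 in SPF and -0.30 in GF mice (adjusted p = 0.574 and 0.589, limma). Its GF difference was 0.016 without pLN-GF replicate 3. All 6 had a Pthlh TSS as their nearest, and the next protein-coding TSS, of Klhl42 or Ccdc91, was 103.6 to 172.5 kb away.

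The peak 69.4 kb upstream (chr6:147333456-147333808, 353 bp, intergenic) stood at 22.0, 15.1 and 20.0 RPKM in the mLN-SPF replicates and at 10.5, 12.3 and 17.3 in those of mLN-GF. In pLN-SPF it stood at 1.08, 1.81 and 3.70 RPKM and in pLN-GF at 1.58 and 2.85. Every mLN library was above every pLN library, although the pLN libraries held only 3 to 7 reads each there. The peak set merges the peaks found in each library. The 3 distal Pthlh peaks, at pLN means of 2.2 to 4.09 RPKM, may therefore have entered it through mLN libraries alone, which was not tested. If so, their separation of the nodes is in part built into the peak set. The log2 difference in GF mice was 2.16 (SE 0.48, adjusted p = 0.009), and it fell short of the call without pLN-GF replicate 1 (1.87, adjusted p = 0.096), a fit in which the lone pLN-GF library is assumed to vary like the other groups. In SPF mice it was 2.72 (SE 0.43, adjusted p = 0.003), and the call held without any single library at 2.45 to 3.04.

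The peak 54.2 kb upstream (chr6:147318306-147318441, 136 bp, intergenic) stood at 24.3, 14.9 and 25.9 RPKM in mLN-SPF and at 46.6, 28.6 and 35.7 in mLN-GF. In pLN-SPF it stood at 5.61, 8.59 and 0 RPKM, the last from 0 reads in replicate 3, where 3 reads would be 7.21 RPKM, and in pLN-GF at 4.11 and 2.11. The node groups did not overlap in either housing. The log2 difference was 2.47 (SE 0.65, adjusted p = 0.022) in SPF and 3.22 (SE 0.72, adjusted p = 0.009) in GF mice. At this short peak the mLN libraries held only 10 to 27 reads, and the call was lost without mLN-SPF replicate 1 (2.37, adjusted p = 0.074) or 3 (2.33, adjusted p = 0.074) in SPF mice, and without pLN-GF replicate 3 (2.86, adjusted p = 0.090) in GF mice. The SPF difference was smaller without the library at 0 reads, pLN-SPF replicate 3 (1.47, adjusted p = 0.024), and larger without pLN-SPF replicate 2 (3.10, adjusted p = 0.018), with the call kept in both fits. With a pseudocount of 0.1 the calls of both housings were lost (3.63, adjusted p = 0.061 in SPF and 3.57, adjusted p = 0.093 in GF mice), and that of SPF mice also without the 2 libraries with the fewest reads (1.33, adjusted p = 0.069).

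The peak 68.9 kb downstream (chr6:147194995-147195558, 564 bp, intergenic) stood at 25.9, 12.4 and 21.9 RPKM in mLN-SPF and at 25.3, 11.0 and 16.2 in mLN-GF. In pLN-SPF it stood at 5.42, 1.88 and 7.53 RPKM and in pLN-GF at 1.98 and 2.29. Again the lowest mLN library was above the highest pLN library, and in both mLN groups replicate 2 was the lowest. The log2 difference was 1.90 (SE 0.47, adjusted p = 0.018) in SPF and 2.49 (SE 0.53, adjusted p = 0.007) in GF mice. The SPF call was lost without mLN-SPF replicate 1 (1.70, adjusted p = 0.074), mLN-SPF replicate 3 (1.81, adjusted p = 0.064) or pLN-SPF replicate 2 (1.45, adjusted p = 0.079), and the GF call without pLN-GF replicate 1 (2.42, adjusted p = 0.058). With all libraries and housing averaged, the 3 Pthlh peaks differed by 2.2 to 2.85 on the log2 scale (adjusted p 0.000122 to 0.000657) and were called under each of 19 other settings of the fit.

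Within the gene the direction turned. The intronic peak 3.2 kb downstream of the TSS (chr6:147260780-147261159), at the 89.0th percentile of all peaks by mean level, stood at 42.5, 47.0 and 45.4 RPKM in mLN-SPF and at 49.3, 54 and 48.7 in mLN-GF. It stood at 66.1, 58.4 and 65.4 RPKM in pLN-SPF and at 63.3 and 69.5 in pLN-GF. All 5 pLN libraries were above all 6 mLN libraries. The log2 difference of -0.48 (SE 0.14, adjusted p = 0.031) in SPF mice was past the significance threshold but under 2-fold, and that of GF mice was -0.38 (SE 0.15, adjusted p = 0.106).

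The Pthlh promoter peak (chr6:147263843-147264423) stood at 18.1, 30.7 and 19.4 RPKM in mLN-SPF and at 24.8, 24.3 and 32.6 in pLN-SPF, which overlap. In mLN-GF it stood at 20.0, 26.2 and 22.9 RPKM and in pLN-GF at 32.7 and 32.8. The log2 difference was -0.28 (95% confidence interval -0.79 to 0.24) in SPF and -0.50 (-1.07 to 0.07) in GF mice. Both intervals ended below the lower confidence bound of each distal peak in the same housing (0.89 or more in SPF and 1.13 or more in GF mice). The distal peaks were called in these same data, and a difference between peaks was not tested. In the plot of levels against distance from the TSS, the mLN points of Pthlh stand above the pLN points only at its 3 outermost peaks.

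**Figure D2:**
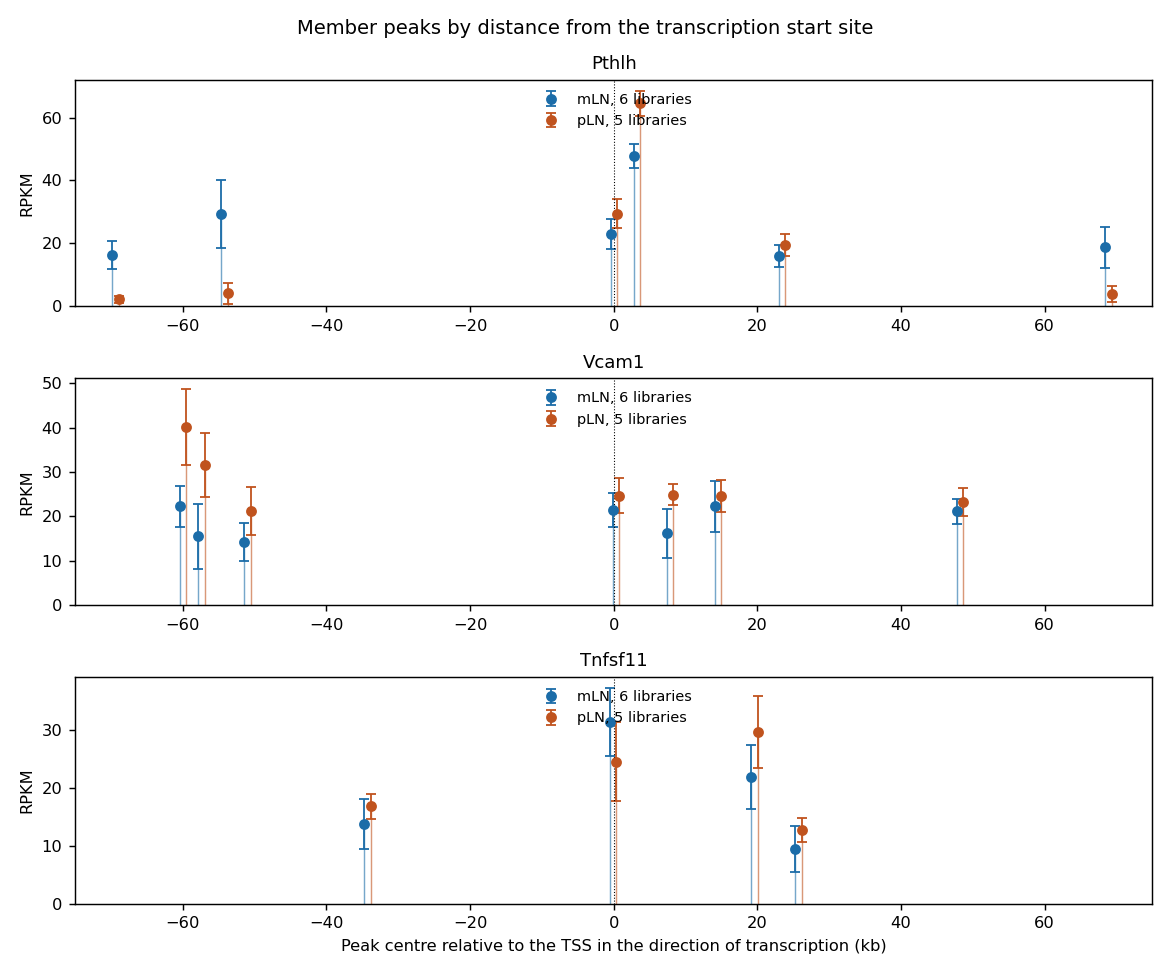
Mean RPKM (points; bars are the SD over libraries) of the peaks of Pthlh, Vcam1 and Tnfsf11 against the distance in kb of the peak centre from the TSS, positive in the direction of transcription, for the 6 mLN and the 5 pLN libraries of both housings together. At the outermost Pthlh peaks mLN means are 16.2, 29.3 and 18.8 RPKM and pLN means 2.2, 4.09 and 3.82, while all 7 Vcam1 peaks have the higher mean in pLN.

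Dsc2 encodes desmocollin 2, a cadherin of desmosomes, the junctions that anchor intermediate filaments in epithelia and heart. Its promoter peak (chromosome 18, 20058875 to 20059631, 757 bp) stood at 12.1, 11.9 and 11.6 RPKM in mLN-SPF and at 26.6, 33.5 and 33.7 in pLN-SPF. It stood at 15.7, 16.2 and 20.7 RPKM in mLN-GF and at 36.0 and 35.1 in pLN-GF. The pLN libraries were the higher in both housings, without overlap. In GF mice the log2 difference of -0.99 (SE 0.25, adjusted p = 0.017) missed the 2-fold limit and reached it without mLN-GF replicate 3 (-1.11, adjusted p = 0.023), with a pseudocount of 0.1 (-1.03, adjusted p = 0.017) and with quantile normalization (-1.08, adjusted p = 0.013). In SPF mice it was -1.32 (SE 0.22, adjusted p = 0.003), and the call held without any single library.

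The second Dsc2 peak, 3.7 kb upstream (20063156 to 20063427, intergenic), stood at 10.7, 19.6 and 14.3 RPKM in mLN-SPF and at 33.7, 42.2 and 37.3 in pLN-SPF. In GF mice it stood at 18.4, 12 and 7.93 RPKM in mLN and at 31.5 and 43.3 in pLN. The groups again did not overlap, and the log2 difference was -1.32 (SE 0.31, adjusted p = 0.013) in SPF and -1.53 (SE 0.34, adjusted p = 0.009) in GF mice. The call was lost in SPF mice without mLN-SPF replicate 1 (-1.12, adjusted p = 0.051) or pLN-SPF replicate 2 (-1.24, adjusted p = 0.062) or without the 2 libraries with the fewest reads (-1.32, adjusted p = 0.058), and in GF mice without pLN-GF replicate 3 (-1.31, adjusted p = 0.113). Of 9 markers of epithelial cells, a cell type that uses this gene, 4 had any peak and only Cd24a had one at its promoter, and their summed RPKM was 295 to 358 in mLN and 332 to 366 in pLN. The blood endothelial and perivascular sums given above were also higher in every pLN library than in any mLN library, and their part in the results at Dsc2 and Vcam1 was not tested. In sorted bulk cells, fewer cells of a type and less open chromatin per cell cannot be told apart.

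Vcam1 encodes the counter-receptor of the integrin alpha4 beta1 and had the most peaks, all on chromosome 3. All 7 log2 differences were negative in SPF mice (-1.86 to -0.16, 1 of them 0.0062 without mLN-SPF replicate 3), with 1 called. In GF mice 6 of 7 were negative (-0.95 to 0.05), with none called by limma or limma-voom. There 1 had an unadjusted p under 0.05, against 12532 of all 42424 peaks by limma. The largest difference of each housing, -1.86 in SPF and -0.95 in GF mice, was in a group of 3 peaks 51.0 to 60.0 kb upstream. The group did not stand apart as a whole. The exon peak 7.8 kb downstream, at -0.65 in SPF and -0.61 in GF mice, differed more than the least different of the 3 (-0.43 and -0.49).

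The called peak of this group, 57.4 kb upstream (204 bp), stood at 16.2, 18 and 1.73 RPKM in mLN-SPF and at 28.1, 34.9 and 40.1 in pLN-SPF. The lowest of these values was a single read in the shallow mLN-SPF replicate 3. In mLN-GF it stood at 23.3, 19.0 and 15.0 RPKM and in pLN-GF at 33.8 and 21.1, which overlap. The log2 difference in SPF mice was -1.86 (SE 0.56, adjusted p = 0.039), and without mLN-SPF replicate 3 it was -0.95 (adjusted p = 0.059). The call was also lost without pLN-SPF replicate 1 (-1.99, adjusted p = 0.077), 2 (-1.84, adjusted p = 0.104) or 3 (-1.75, adjusted p = 0.086), without the 2 libraries with the fewest reads (-0.84, adjusted p = 0.118) and with a pseudocount of 0.1 (-2.06, adjusted p = 0.0505), and in GF mice the log2 difference was -0.49 (SE 0.62, adjusted p = 0.659). Averaged over housing it was -1.17 (adjusted p = 0.045) and was called in 2 of 11 fits that left out a library, those without mLN-SPF replicate 1 or 2, with a range of -1.42 to -0.72 over the 11.

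Its neighbour 2.2 kb away, 60.0 kb upstream of the TSS (chr3:116189416-116189910), was the strongest Vcam1 peak and deeper, at 24 to 220 reads. It stood at 20.0, 27.9 and 17.1 RPKM in mLN-SPF and at 42.4, 43.3 and 25.1 in pLN-SPF, which overlap through the shallow pLN-SPF replicate 3. In mLN-GF it stood at 20.3, 28.3 and 20.3 RPKM and in pLN-GF at 46.3 and 43.5, which do not overlap. The log2 difference was -0.73 (SE 0.25, adjusted p = 0.069) in SPF and -0.95 (SE 0.29, adjusted p = 0.036) in GF mice, neither of them called, and the latter was called without mLN-GF replicate 2 (-1.11, adjusted p = 0.027), without both mLN libraries numbered 2 (-1.11, adjusted p = 0.021) and with quantile normalization (-1.01, adjusted p = 0.035).

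The Vcam1 promoter (chr3:116128633-116129757) stood at 25.2, 26.3 and 20.0 RPKM in mLN-SPF, at 24.9, 29.4 and 25.6 in pLN-SPF, at 17.6, 22.1 and 17.2 in mLN-GF and 18.2 and 25.3 in pLN-GF. All groups overlapped between nodes. The log2 difference was -0.16 (95% confidence interval -0.65 to 0.33) in SPF mice, an interval within the 2-fold limits, and -0.04 without mLN-SPF replicate 3. The 2 peaks over coding exons and the one 48.2 kb downstream had log2 differences of -0.65 to -0.28 in SPF mice (lowest adjusted p = 0.194), and the one 51.0 kb upstream -0.43 in SPF and -0.71 in GF mice (adjusted p = 0.473 and 0.276).

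Icam1, whose product binds the leukocyte integrin LFA-1, had the most open member peak. Its promoter peak (chr9:21015373-21017008, 1636 bp, over the RefSeq promoter shown above) held 135 to 807 reads per library and stood at 50.4, 39.3 and 29.1 RPKM in mLN-SPF and at 47.1, 48.0 and 42.8 in pLN-SPF. It stood at 35.0, 40.9 and 32.2 RPKM in mLN-GF and at 36.2 and 46.2 in pLN-GF. The peak 3.9 kb upstream (chr9:21011837-21012313), at the 92.0th percentile of all peaks, stood at 62.4, 63.3 and 36.2 RPKM in mLN-SPF, at 71.4, 69.9 and 56.2 in pLN-SPF, at 79.1, 72.3 and 52.0 in mLN-GF and 49.3 and 70.1 in pLN-GF. Both peaks overlapped between nodes in each housing, with log2 differences in SPF mice of -0.24 (95% confidence interval -0.68 to 0.19) and -0.32 (-0.81 to 0.18). The lowest of these mLN-SPF values came from the shallow replicate 3 at both peaks, and without it the log2 differences were -0.04 and -0.06.

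Tnfsf11 encodes RANK ligand, the cytokine of the RANK receptor that is needed for lymph node formation and osteoclasts. None of its 4 peaks was called between nodes in SPF or GF mice by limma or limma-voom, with 1 at an unadjusted p under 0.05 in SPF and none in GF mice, against 12680 and 12532 of all 42424 peaks by limma. That 1 was the promoter peak, the only Tnfsf11 peak with a positive difference. It stood at 24.8, 26.8 and 28.8 RPKM in mLN-SPF and at 20.8, 20.3 and 17.8 in pLN-SPF, and at 40.8, 32.5 and 34.3 in mLN-GF and 32.2 and 31.3 in pLN-GF. Within each housing the mLN libraries were above the pLN libraries, yet the log2 differences were 0.43 (SE 0.19, adjusted p = 0.143) in SPF and 0.16 (SE 0.21, adjusted p = 0.660) in GF mice. At 110 bp it was the narrowest member peak and held 6 to 24 reads per library. The 2 intronic peaks and the one 34.3 kb upstream had log2 differences of -0.37 to -0.20 in SPF and -0.72 to -0.41 in GF mice, and 2 of the 3 were 0.15 and 0.14 in SPF mice without mLN-SPF replicate 3.

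**Figure D3:**
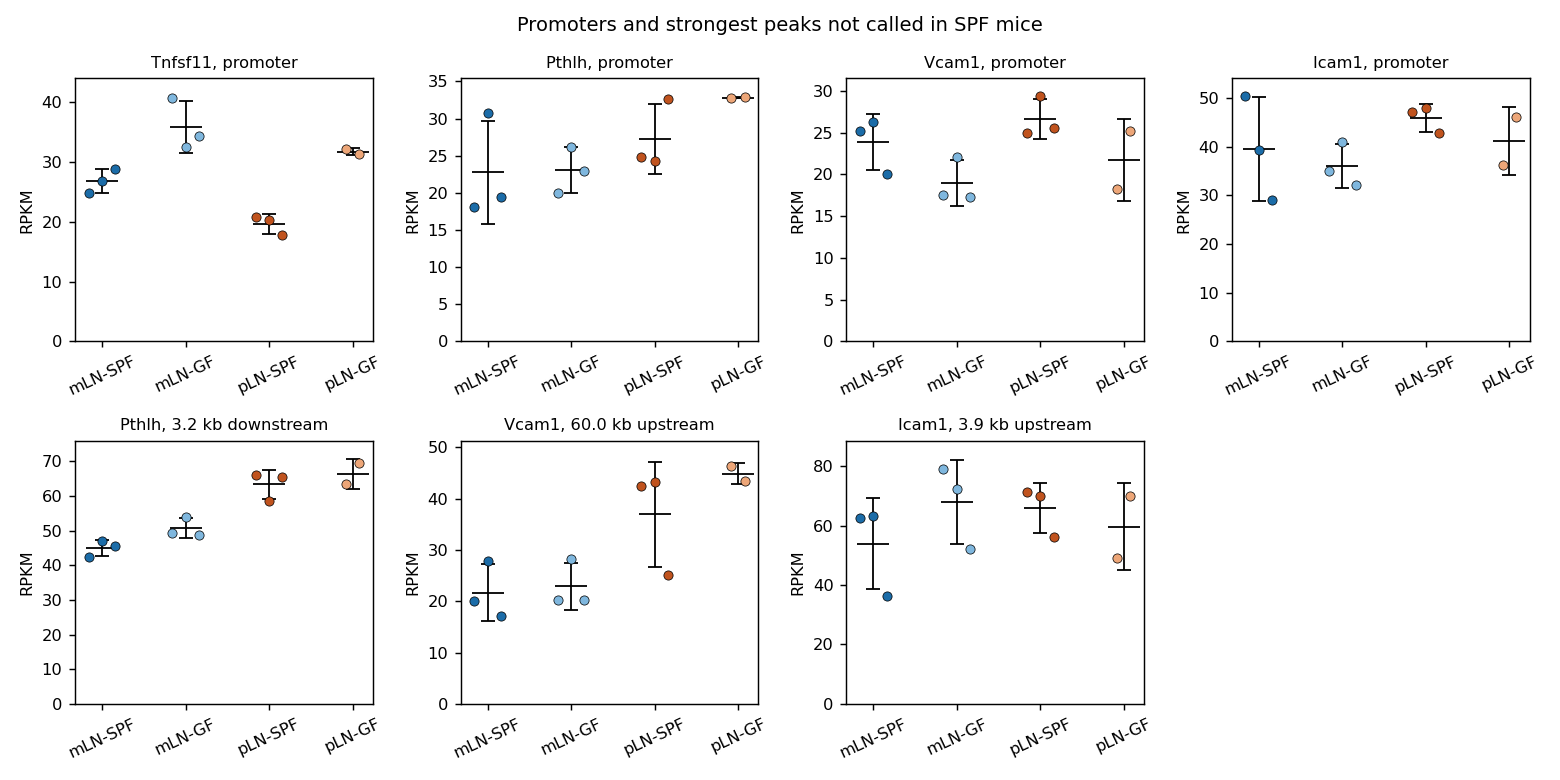
RPKM of the 4 uncalled promoter peaks and of the strongest uncalled peaks of Pthlh, Vcam1 and Icam1, with a point per library, the mean as a horizontal line and the SD as bars. The Tnfsf11 promoter lies at 31.3 to 40.8 RPKM in the 5 GF and 17.8 to 28.8 in the 6 SPF libraries, and the Pthlh peak 3.2 kb downstream at 42.5 to 54 in mLN and 58.4 to 69.5 in pLN.

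Over all members, the libraries of the nodes did not overlap at 11 of 21 peaks in SPF mice (4 higher in mLN, 7 in pLN), compared with 33.1% of all peaks. In GF mice it was also 11 (4 and 7), compared with 48.8% in a comparison where pLN-GF has only 2 libraries. Over both housings 6 peaks separated all mLN from all pLN libraries, compared with 17.4% of all peaks, namely the 3 distal Pthlh peaks, the Pthlh intron and both Dsc2 peaks. As said above, the 3 distal Pthlh peaks may have entered the peak set through mLN libraries alone. If so, their part in each of these counts is in part built in.

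The second question was whether the microbiota leaves a mark on these genes. Between SPF and GF mice no member peak was called by limma or limma-voom in mLN, in pLN or averaged over both, with 1 of 21 at an unadjusted p under 0.05 in each. Of all 42424 peaks, 3441, 2636 and 4736 had such a p by limma. Of all peaks 0.00236%, 0.00707% and 0.066% were called in these comparisons. For the interaction of location and housing no member was called or had an unadjusted p under 0.05, and 0.0% of all peaks were called, with 1485 of 42424 at such a p. The median log2 difference of the members, SPF minus GF, was -0.03 in mLN and 0.01 in pLN.

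The member with the lowest p averaged over nodes was the Tnfsf11 promoter, at which all 5 GF libraries stood above all 6 SPF libraries, as the values above show. No other member, and 0.832% of all peaks, separated the housings over both nodes. The log2 difference, SPF minus GF, was -0.40 (SE 0.19, adjusted p = 0.617) in mLN, -0.67 (SE 0.21, adjusted p = 0.565) in pLN and -0.54 (SE 0.14, adjusted p = 0.203) averaged over both, and thus did not pass the correction over all peaks. Besides it, the Dsc2 promoter, the Pthlh intron and the Pthlh peak 54.2 kb upstream did not overlap between housings in mLN, all 4 with the higher values in GF, compared with 11.0% of all peaks. In pLN 5 members did not overlap, compared with 28.0% of all peaks: the promoters of Tnfsf11, Dsc2 and Pthlh and the Vcam1 peak 60.0 kb upstream were higher in GF, and the Vcam1 exon peak 7.8 kb downstream was higher in SPF.

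The Dsc2 promoter differed between housings in mLN by -0.51 (SE 0.22, adjusted p = 0.597). The Pthlh peak 54.2 kb upstream differed there by -0.75 (95% confidence interval -2.14 to 0.64), an interval that extends past 2-fold toward GF and not toward SPF. The largest interaction of a member, that of the Vcam1 peak 57.4 kb upstream, was -1.37 (SE 0.83, unadjusted p = 0.122), and stood at -0.46 without mLN-SPF replicate 3, the library with a single read.

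**Figure D4:**
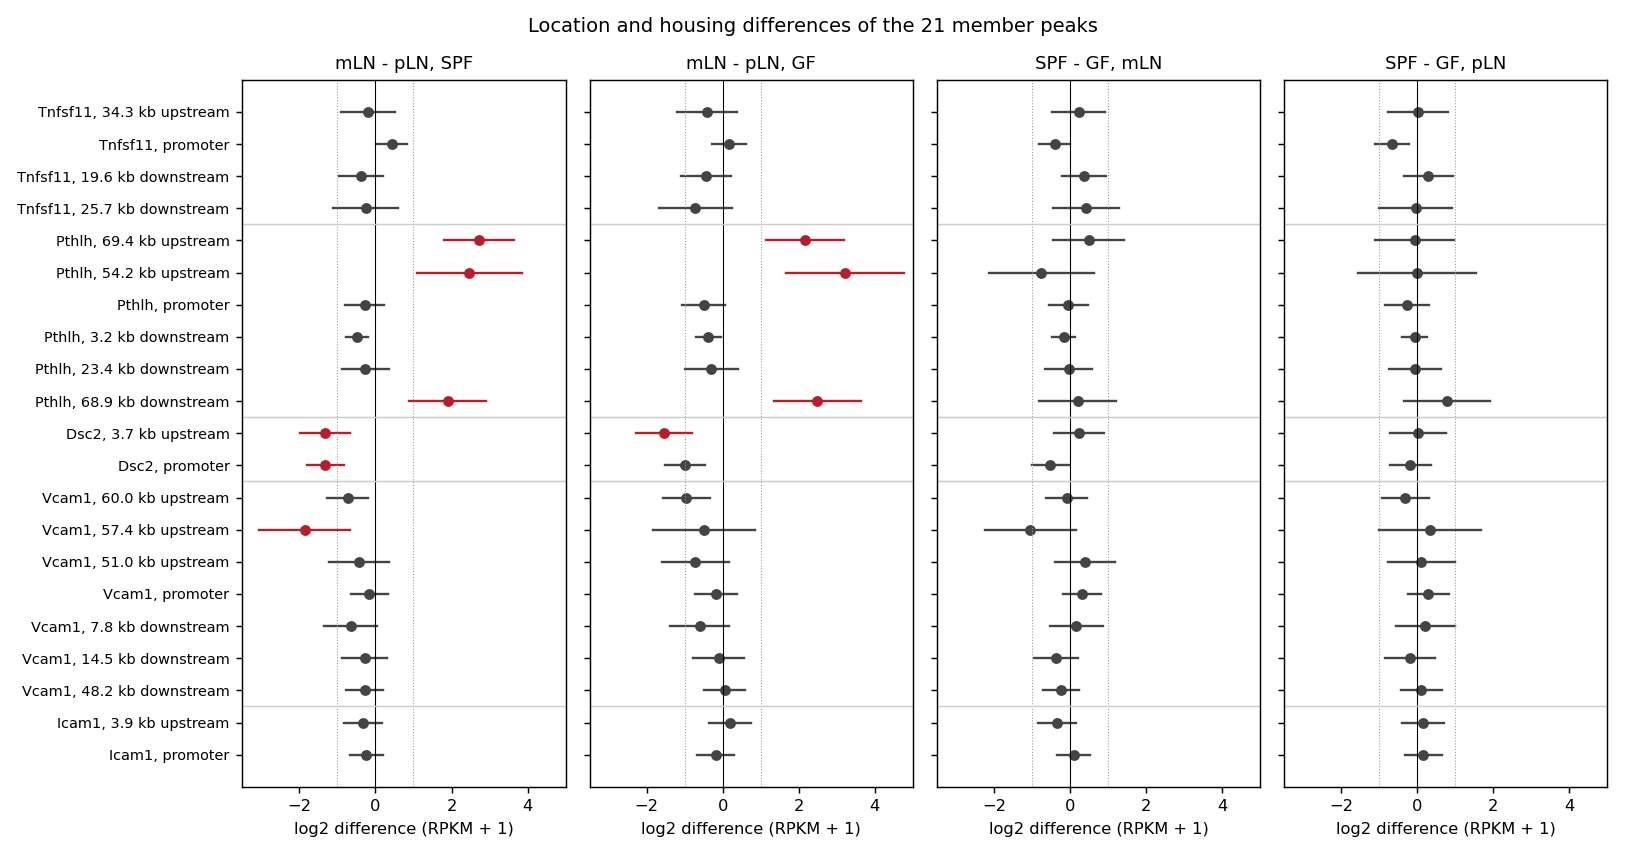
Log2 differences (points) with 95% confidence intervals (lines) of the 21 member peaks, ordered by gene and position, for mLN minus pLN in SPF and GF mice and SPF minus GF in mLN and pLN. Red marks called peaks, dotted lines a 2-fold change, and the called peaks are confined to the location panels, with 6 in SPF and 4 in GF mice.

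The partner genes of the members gave the following counts in SPF mice, where each list holds genes chosen from textbook knowledge with results on these data known. Of 12 other organizer and marginal reticular cell genes, 10 had 68 peaks, with none called higher in mLN and 11 higher in pLN, and a median log2 difference of -0.44. Some markers of other cell types had medians of like sign. These were -0.37 over 47 blood endothelial peaks (3 called higher in mLN, at Eng and Pecam1, and 10 in pLN) and -0.45 over 36 perivascular and smooth muscle peaks (1 and 2). Over 10 lymphatic endothelial peaks the median was of the other sign, 0.44 (2 and 0). Hematopoietic (-0.22), follicular dendritic (-0.10) and epithelial (-0.07) medians were smaller. The part of these cell types in the counts of the organizer list was not tested. The leading peaks by adjusted p were at Cxcl13, the B cell attracting chemokine (-1.67, SE 0.30, adjusted p = 0.005), and Cxcl12, the ligand of CXCR4 (-1.62, SE 0.34, adjusted p = 0.009). Ncam1 came next (-0.90, SE 0.20, adjusted p = 0.012) and was under 2-fold. In GF mice 1 of the 68 was called higher in mLN, at Ncam1, and 11 in pLN.

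Of 57 peaks of 7 genes for the receptor, decoy and signaling of RANK ligand, 5 were called higher in mLN and 4 in pLN (median -0.18). Tnfrsf11b, which encodes the decoy receptor osteoprotegerin, had a peak higher in mLN (1.85, SE 0.33, adjusted p = 0.004), and Nfatc1, a transcription factor downstream of RANK, one higher in pLN (-1.19, SE 0.23, adjusted p = 0.006). A peak with Map3k7 as its nearest gene, though 960393 bp away, was also higher in pLN (-1.48, SE 0.27, adjusted p = 0.005). Map3k7 had peaks called in both directions, in SPF and in GF mice. Of 26 peaks of 9 genes of the lymphotoxin beta receptor and the alternative NF-kB pathway, 1 was called, higher in pLN, at Birc3, a ubiquitin ligase of that pathway (-1.61, SE 0.39, adjusted p = 0.016). The next genes by adjusted p, the kinase gene Map3k14 (-0.55, adjusted p = 0.093) and Birc2 (-1.24, adjusted p = 0.108), were not called. In GF mice these lists gave 5 and 4 and 0 and 1 calls higher in mLN and pLN.

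Of 36 peaks of 9 genes for the receptor and effectors of parathyroid hormone-related protein, 4 were called, all higher in mLN (median 0.15). They included intronic peaks of the kinase Sik3 (1.65, SE 0.37, adjusted p = 0.010), the histone deacetylase Hdac4 (1.37, SE 0.34, adjusted p = 0.018) and the transcription factor Mef2c (1.60, SE 0.43, adjusted p = 0.026), while the receptor gene Pth1r had no called peak. In GF mice and averaged over housing, Mef2c had peaks called in both directions. Of 26 peaks of 12 desmosome genes, 1 was called higher in mLN, in an intron of desmoplakin, Dsp (1.42, SE 0.37, adjusted p = 0.021), and 2 higher in pLN, among them the promoter of Dsc3, the neighbour of Dsc2 (-1.22, SE 0.37, adjusted p = 0.041). The other Dsc3 peak, 41573 bp from the TSS, was called in GF mice in the opposite direction, higher in mLN (2.15, SE 0.45, adjusted p = 0.006). A peak of Dsg2 stood at -0.90 (SE 0.22, adjusted p = 0.015), under 2-fold. Of 44 peaks of 13 integrin partners and other adhesion molecules, 3 were called, all higher in pLN, at Alcam (-1.76, SE 0.43, adjusted p = 0.017) and Itgb1 (-1.0, SE 0.30, adjusted p = 0.038), and the promoter of Cd34 stood at 0.58 (adjusted p = 0.029), under 2-fold. In GF mice the calls higher in mLN and pLN were 5 and 1, 3 and 2, and 0 and 3 for these lists. Cd34 was among the genes of the last 3, opposite in direction to its promoter in SPF mice. This gene is also in the list of other organizer and marginal reticular cell genes, and counted there as higher in pLN in GF mice. The list counts of SPF mice stand beside 6.49% and 4.27% of all peaks, and those of GF mice beside 8.55% and 4.62%.

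For each called member, the peaks of other genes whose log2 values across the 11 libraries, centred on their own mean, differed least were named by root mean square difference. For the Pthlh peak 69.4 kb upstream these were an intronic peak of Wt1 (0.21), an intronic peak of Ppic (0.24) and one near the start of Atp8b4 (0.26). For the peak 68.9 kb downstream they were at Sbsn (0.23), S100a3 (0.23) and Pacs2 (0.27), and for the shallow one 54.2 kb upstream at Me1 (0.43), Otogl (0.46) and Clnk (0.52). The Otogl and Clnk peaks were intergenic, 75595 and 101777 bp from the TSS. The Dsc2 promoter was most like peaks with Mtx2 (0.16), Blm (0.18) and Apip (0.19) as their nearest genes, at 383068, 70117 and 43501 bp from the TSS. The second Dsc2 peak was most like the promoter of Olfm4 (0.19) and intronic peaks of Ggact (0.20) and Gbe1 (0.20), the last 249000 bp from the TSS. The Vcam1 peak was most like peaks at Mki67 (0.30), Phlda3 (0.33) and Cdk2ap1 (0.35).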

How the data were processed

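ATAC-seq libraries of sorted lymph node SCs were analysed from the deposited peak table. Per the study's methods and the labels, the authors aligned reads to mm10 (GRCm38) by STAR 2.5.3a and retained uniquely mapped ones, used Picard against duplicates, obtained broad peaks of each library from MACS2, took their union and scaled counts with DESeq2 1.22; a shift of the insertion sites was not stated. The deposited values are RPKM per merged peak. Columns of the authors' own log2 fold changes and adjusted p-values were not used. Of 42434 entries 10 repeated a peak. In every one of 42434 entries, the values headed pLN-GF 2 were an average of the remaining 5 pLN libraries (relative tolerance 1e-09), so this 1 column belongs to no sample and 11 libraries were used. Reads were recovered as whole multiples of a step in 100% of values (within 0.02 of a read); floors of 3 reads cover counting error only.

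The deposited gene names were ignored. Members and lists were chosen with earlier results of these data known. limma 3.58.1 (R 4.3.3) was fitted to log2(RPKM + 1) with 4 group means, a variance trend and 7 residual degrees of freedom, without a filter on low values, and was tested on simulated data; 7 two-sided comparisons were made, each adjusted over 42424 peaks. Values in every library are given for each member's peak nearest its TSS, its strongest peak and each called peak; of partner lists, up to 3 genes by adjusted p in SPF mice; of each called peak, the 3 most alike peaks. Alternatives were pseudocounts of 0.1 and 5, a mean of at least 5 RPKM, quantile normalization, limma-voom on recovered reads, a replicate block, peaks within 50 kb, each library left out, both mLN libraries numbered 2 left out and, chosen after seeing the data, the 2 libraries with the fewest reads left out.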

Additional observations from a re-analysis of the deposited data

How the results depend on the processing

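No called difference changed sign under the alternatives, while some small, uncalled ones did. With a library left out, the GF difference of the Vcam1 promoter ran from -0.40 to 0.047, that of the Icam1 peak 3.9 kb upstream from -0.069 to 0.43 in GF mice and from -0.19 to 0.061 averaged over housing, and the last was 0.0071 without the 2 libraries with the fewest reads. Over all 21 members, at most 3 signs turned in SPF mice, 2 in GF mice and 1 averaged over housing under any one alternative, and for housing up to 4 in mLN, 6 in pLN, 3 averaged over nodes and 5 for the interaction. Counts of member peaks called between nodes stayed within 1.5 times except as follows. Restricting members to peaks within 50 kb of the TSS left 2 in SPF mice (from 6), 1 in GF mice (from 4) and 2 averaged over housing (from 6), since the distal Pthlh and Vcam1 peaks then drop out. Without the 2 libraries with the fewest reads, an alternative chosen after seeing the data, 3 were called in SPF mice. Left-out libraries that gave 3 in SPF mice were mLN-SPF 1, mLN-SPF 3 and pLN-SPF 2, and those that gave 2 in GF mice were pLN-GF 1 and pLN-GF 3. With a library left out, member counts ran from 3 to 6 in SPF mice, from 2 to 5 in GF mice and from 5 to 6 averaged over housing, and counts over all peaks from 2290 to 5939, from 2315 to 6149 and from 5905 to 7403. Named members lost a call under 34 and gained one under 8 of the alternative fits, 807 left call and sign as they were, and 6 turned the sign of an uncalled value.

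Counts over all peaks for housing were small and unstable, and no member was called in any of them. In mLN, 1 peak became 0 with a pseudocount of 0.1 and without both mLN libraries numbered 2, 2 with a pseudocount of 5 or limma-voom, and 3 without the 2 shallowest libraries. In pLN, 3 became 6 with a pseudocount of 0.1, 51 with limma-voom (50 of them higher in GF, from 2 of 3) and 24 without the 2 shallowest libraries. Averaged over nodes, 28 became 18 with quantile normalization, 158 with limma-voom, 3 without both mLN libraries numbered 2 and 149 without the 2 shallowest libraries. With a library left out these counts ran from 0 to 3, from 2 to 7 and from 3 to 49, and the interaction from 0 to 1. The cause was not tested.

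Whether replicate numbers pair the samples was not settled. Of 15 same-numbered pairs, 5 had correlated deviations over 0.1 (all 15 from -0.152 to 0.271). Among the 5 were the pairs of mLN-GF, mLN-SPF and pLN-SPF libraries numbered 2 (0.196 to 0.271). A pair of unlike number, mLN-GF 1 and pLN-SPF 3, reached 0.21. With the replicate block, 6 member peaks were called in SPF, 5 in GF and 6 averaged over housing, the added GF call being the Vcam1 peak 60.0 kb upstream (-1.11, SE 0.24, adjusted p = 0.006), and housing calls over all peaks were 2 in mLN and 5 in pLN. Location calls over all peaks rose from 4567 to 5065 in SPF mice, from 5588 to 7359 in GF mice and from 6567 to 7280 averaged over housing.

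Depth limits the short and weak peaks most: the Pthlh peaks 69.4 and 54.2 kb upstream rest on 3 to 40 and 0 to 27 reads per library, and the Tnfsf11 promoter on 6 to 24.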
